A study of Mus musculus with 5 samples.

Results

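LY294002, a morpholine-bearing chromone, is used as an inhibitor of phosphoinositide 3-kinase (PI3K), and it is also known to bind proteins outside that family. The 9 genes described here are Brd2 and Brd3, which encode bromodomain proteins of the BET family, Csnk2a1, Csnk2a2 and Csnk2b, which encode the subunits of protein kinase CK2, Pim1 and Pim3 of the PIM kinases, Prkdc, which encodes the catalytic subunit of DNA-PK, and Myc, a transcription factor gene often followed as a readout of BET proteins. They were chosen by name as reported protein targets of the compound, with Myc added. A probe set was found for 8 of the 9 genes. Together these genes had 26 of the 45101 probe sets on the array, and 8 of the 12935 genes that entered the test were members.

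BET proteins read acetylated histones and bring the elongation factor P-TEFb to promoters. CK2 is a constitutively active kinase built from catalytic alpha and alpha-prime subunits on a dimer of regulatory beta subunits, whereas the PIM kinases need no activating phosphorylation, so that their activity largely follows the amount of protein made. DNA-PK joins broken DNA ends with the Ku proteins, and MYC with its partner MAX binds E-box sequences at genes of ribosome synthesis and growth. The arrays measured the mRNA of these genes, and not the binding of the compound to their proteins.

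The RNA came from optic nerves of C57BL/6 mice aged P35 to P45 that were kept as organotypic explants for 3 days in vitro. The L-LY29 nerves (3 arrays) received LY294002 at 0.5 µM, and the H-LY29 nerves (2 arrays) received it at 50 µM, as the sample labels give the doses. The methods of the study give another, higher L-LY29 dose for adult nerves, which was not settled, and the labels also spell the compound LY295002 in the treatment entries. Both groups carried the compound, and vehicle-treated nerves were not analysed here, so that each difference below subtracts the H-LY29 mean from the L-LY29 mean (log2) and none is a change from an untreated nerve. Per the methods, adult nerves were taken out with the retina intact and then freed of the arachnoid membrane and other adhering tissue before culture. The nerve carries the axons of the retinal ganglion cells, whose cell bodies lie in the retina. Which mice or nerves went to which array is not stated, and a p-value therefore reflects array-to-array spread alone, part of which may be technical.

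Several properties of the arrays differed between the doses. The poly-A RNA controls, bacterial transcripts added to the sample, averaged between 9.97 and 10.45 in L-LY29 and 3.17 on both H-LY29 arrays. These controls do not come from the nerves, and every L-LY29 array was above both H-LY29 arrays. Dose and sample preparation therefore cannot be told apart in the differences below. The median over all probe sets lay between 5.33 and 5.35 on the L-LY29 arrays, against 5.56 and 5.54 on the H-LY29 arrays. The 3′ minus 5′ difference of Gapdh lay between -0.15 and -0.09 in L-LY29 nerves, against 0.73 and 0.65 in H-LY29 nerves. The oligodendrocyte markers measured (9 of 10 listed), which check the labelled tissue, averaged between 12.13 and 12.23 in L-LY29 nerves, against 12.119 and 12.001 in H-LY29 nerves. The near means hide calls in both directions, with 6 of these markers called higher and 3 lower. The 7 fibroblast markers averaged between 7.83 and 8.52 in L-LY29 nerves, against 11.25 and 10.87 in H-LY29 nerves, and all 7 were called lower. The 7 astrocyte markers averaged between 8.11 and 8.99 in L-LY29 nerves, against 10.60 and 10.49 in H-LY29 nerves, with 5 called lower. Both lists thus read lower in L-LY29. The 7 microglia markers averaged between 8.76 and 8.85 in L-LY29 nerves, against 7.85 and 7.64 in H-LY29 nerves, with 5 called higher and 1 lower. The mitosis markers measured (6 of 8 listed) averaged between 4.13 and 4.51 in L-LY29 nerves, against 8.56 and 7.75 in H-LY29 nerves, and all 6 were called lower. Of these, Mki67, Bub1, Tpx2 and Ncapg averaged 3.95, 3.76, 4.04 and 3.51 in L-LY29. They passed the filter on low values (4.77) through H-LY29 alone, so that their differences are not read as sizes. The 8 ocular surface epithelium markers, a list drawn up after an earlier analysis had seen them on these arrays, shifted more than any other marker list. They averaged 10.90, 8.30 and 9.29 on L-LY29 replicates 1, 2 and 3, against 4.33 and 4.01 in H-LY29 nerves, with 7 of 8 called higher. Among those called, Krt6b, Calml3, Lypd2, Psca and Asprv1 averaged 4.29, 2.82, 4.39, 3.54 and 3.83 in H-LY29. These passed the filter through L-LY29 alone, so that their differences are not read as sizes either. In bulk RNA, fewer cells of a type cannot be told apart from less RNA per cell, and the part of these shifts in the results below was not tested.

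The members went in both directions. Where a gene was represented by its brightest probe set (by mean over the 5 arrays), Brd2, Csnk2a2 and Myc were higher in L-LY29 than in H-LY29, Brd3, Csnk2a1, Pim1 and Pim3 were lower, and Prkdc did not pass the test (limma, Benjamini-Hochberg adjusted p under 0.05 over all tested genes). That makes 7 of 8 members called, against 73.8% of all 12935 genes. The 3 higher calls stand beside 27.1% of all genes, and the 4 lower calls beside 46.6%. Calls were thus the rule on these arrays, and a call by itself does not set a member apart. The median difference was -0.46 over the 8 members and -0.26 over all genes.

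**Figure D1:**
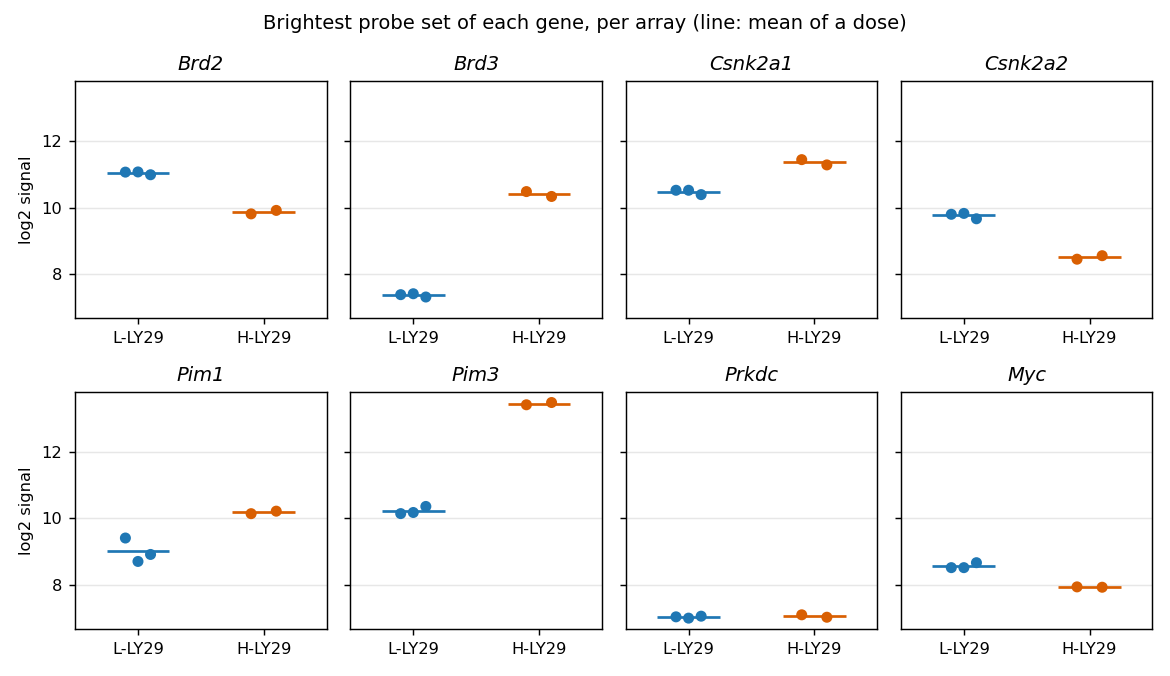
Log2 signal of the brightest probe set of each of the 8 measured genes on every array, with L-LY29 (3 points) left of H-LY29 (2 points) and a line at each mean. The doses overlapped for Prkdc alone among these 8 genes, and Pim1 had the widest spread among its L-LY29 arrays.

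Over probe sets, 25 of the 26 were tested, and 21 of these were called, against 72.8% of all 23456 tested probe sets. Of the members' probe sets, 8 were higher in L-LY29 (29% of all tested) and 13 were lower (43.7% of all tested). The doses did not overlap for 22 of the 25, against 82% of all tested probe sets. The median difference of the 25 was -0.50, and that of all tested probe sets was -0.20. Of the 6 members with at least 2 called probe sets, 3 had calls in opposite directions (Csnk2a1, Csnk2a2 and Pim1), against 43.3% of all such genes. Of the 25, 3 passed the filter on low values (4.77) through one dose alone, namely 1453100_at and 1419936_at of Csnk2a2 and 1423006_at of Pim1. Among the 22 whose mean reached the filter in both doses, a criterion added after the values were seen, 7 were higher and 11 were lower, against 70.8% of all such probe sets called in either direction. Equal values on 2 or more arrays of a dose occurred in 9 of the 26 probe sets (34.6%) and in 41.1% of all probe sets, and such ties make the measured spread smaller.

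**Figure D2:**
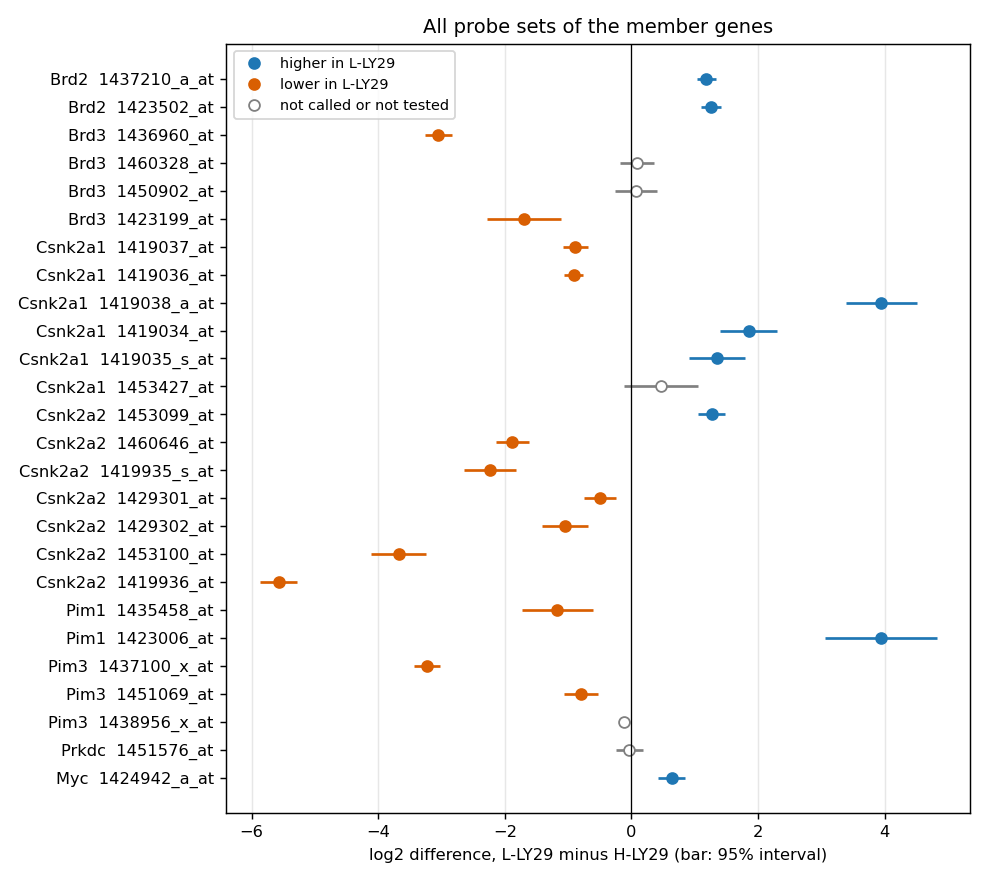
Difference in log2 signal (L-LY29 minus H-LY29) for each of the 26 probe sets of the members, with the 95% interval of limma's fit for the 25 tested. Points right of 0 are higher in L-LY29. Brd2 had both probe sets on one side, whereas Csnk2a1, Csnk2a2 and Pim1 had called probe sets on both sides.

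Of the BET genes, Brd2 was higher in L-LY29 on both probe sets. Probe set 1437210_a_at gave 11.08, 11.08 and 11.00 on the L-LY29 arrays and 9.82 and 9.92 on the H-LY29 arrays. All L-LY29 arrays were above both H-LY29 arrays. The difference was 1.18 ± 0.06 (SE; 2.27-fold, adjusted p = 8.19e-05). Probe set 1423502_at gave 10.16, 10.24 and 10.18 in L-LY29 and 8.98 and 8.89 in H-LY29. It separated the doses as widely, with a difference of 1.25 (95% interval 1.10 to 1.41).

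Brd3 was lower in L-LY29 on 2 of its 4 probe sets. The brightest, 1436960_at, gave 7.38, 7.41 and 7.31 in L-LY29 and 10.49 and 10.34 in H-LY29. The doses were far apart, with a difference of -3.05 ± 0.08 (SE; 8.28-fold, adjusted p = 4.04e-05). Probe set 1423199_at gave 5.15, 5.68 and 5.68 in L-LY29 and 7.40 and 7.005 in H-LY29, a difference of -1.70 (adjusted p = 0.00163). The other two probe sets overlapped between doses. Probe set 1460328_at read 7.17, 6.98 and 6.98 in L-LY29 and 6.92 and 6.98 in H-LY29, with a difference of 0.09 (95% interval -0.17 to 0.36). Probe set 1450902_at read 6.68, 6.85 and 6.68 in L-LY29 and 6.81 and 6.53 in H-LY29, with a difference of 0.07 (95% interval -0.26 to 0.40). The size of the Brd3 difference therefore rested on the probe set: with the second brightest in place of the brightest, the gene was not called (0.09, adjusted p = 0.45).

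A list of transcription elongation genes and other partners of BET proteins had 25 measured genes, among them Brdt of the BET family itself. Of the 25, 8 were higher, 10 were lower and 7 were not called. Their median was -0.10, beside 27.1% of all genes higher and 46.6% lower. The count of higher genes fell to 5 without L-LY29 replicate 2 and to 4 without L-LY29 replicate 3. The median changed sign when arrays were set to equal medians (0.11) or quantile normalized (0.28). Hexim1, which encodes an inhibitor of P-TEFb, read 8.34, 8.42 and 8.34 in L-LY29 and 7.83 and 7.81 in H-LY29. Its L-LY29 values were all above its H-LY29 values, by 0.54 ± 0.07 (SE; adjusted p = 0.00154), and both of its probe sets were called higher. Med1, a Mediator subunit, was lower by 2.92, and Ell (-2.69) and Aff1 (-2.48), which encode parts of the super elongation complex, were lower too. Mllt3, another partner of that complex, differed by -1.39. Of the 6 Med1 probe sets, 3 were called higher and 2 lower, and Ell, Aff1 and Mllt3 each had 1 called higher and 1 called lower.

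Csnk2a1, the alpha subunit gene of CK2, was called lower on 2 probe sets, higher on 3 and not called on 1. Its brightest probe set, 1419037_at, gave 10.53, 10.53 and 10.40 in L-LY29 and 11.45 and 11.29 in H-LY29. Its L-LY29 arrays were all below its H-LY29 arrays, with a difference of -0.89 ± 0.08 (SE; 1.85-fold, adjusted p = 0.000344). Probe set 1419036_at behaved alike, at 9.99, 9.91 and 9.89 in L-LY29 and 10.81 and 10.87 in H-LY29 (-0.91, adjusted p = 0.000137). Probe set 1419038_a_at went the other way, at 10.77, 10.72 and 10.49 in L-LY29 and 6.38 and 7.05 in H-LY29. That difference of 3.95 ± 0.22 (SE; 15.4-fold, adjusted p = 9.52e-05) exceeded the others of this gene. The suffix _a_at marks a probe set that matches several transcripts of one gene, and _s_at one shared by transcripts that can belong to more than one gene.

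The remaining Csnk2a1 probe sets were higher or not called. Probe set 1419034_at gave 9.73, 9.76 and 9.46 in L-LY29 and 7.57 and 8.02 in H-LY29 (1.85, adjusted p = 0.000455). Probe set 1419035_s_at gave 8.95, 8.70 and 8.52 in L-LY29 and 7.20 and 7.54 in H-LY29 (1.36, adjusted p = 0.00132). Both were higher on every L-LY29 array. Probe set 1453427_at gave 5.63, 5.99 and 5.63 in L-LY29 and 4.99 and 5.57 in H-LY29, which did not overlap but missed the threshold (0.47, adjusted p = 0.119). With the mean of the tested probe sets in place of the brightest, the direction of Csnk2a1 turned to 0.97 (adjusted p = 0.00132). The deposited values give no single direction for Csnk2a1 mRNA.

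Csnk2a2, the alpha-prime gene, was higher on its brightest probe set and lower on the other 6. Probe set 1453099_at gave 9.80, 9.83 and 9.67 in L-LY29 and 8.45 and 8.56 in H-LY29. Its doses did not overlap, and the difference was 1.27 ± 0.08 (SE; 2.40-fold, adjusted p = 0.000146). Probe set 1460646_at gave 7.42, 7.48 and 7.46 in L-LY29 and 9.46 and 9.20 in H-LY29 (-1.88, adjusted p = 9.39e-05). Probe set 1419935_s_at gave 6.86, 6.97 and 6.64 in L-LY29 and 8.88 and 9.24 in H-LY29 (-2.23, adjusted p = 0.000189). All L-LY29 arrays lay below both H-LY29 arrays on these probe sets. Smaller differences without overlap were seen on a further pair. Probe set 1429302_at gave 7.03, 7.02 and 7.26 in L-LY29 and 8.31 and 7.99 in H-LY29 (-1.05, adjusted p = 0.00173). Probe set 1429301_at gave 7.51 on all 3 L-LY29 arrays, against 8.12 and 7.89 in H-LY29 (-0.50, adjusted p = 0.00739).

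The last 2 Csnk2a2 probe sets passed the filter on low values through H-LY29 alone, so that neither difference is read as a size. Probe set 1453100_at gave 4.55, 4.92 and 4.43 in L-LY29 and 8.32 and 8.30 in H-LY29. Probe set 1419936_at gave 3.65, 3.49 and 3.59 in L-LY29 and 9.05 and 9.25 in H-LY29. Its L-LY29 values lay under the 4.14 reached by the highest of the poly-A control probe sets in H-LY29, where those controls read low. Both probe sets were lower on every L-LY29 array. With the mean of the tested probe sets or the second brightest one, the direction of Csnk2a2 turned to -1.95 and -1.88. Csnk2b, the beta subunit gene, is named by no probe set in the annotation used, and was not analysed here.

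**Figure D3:**
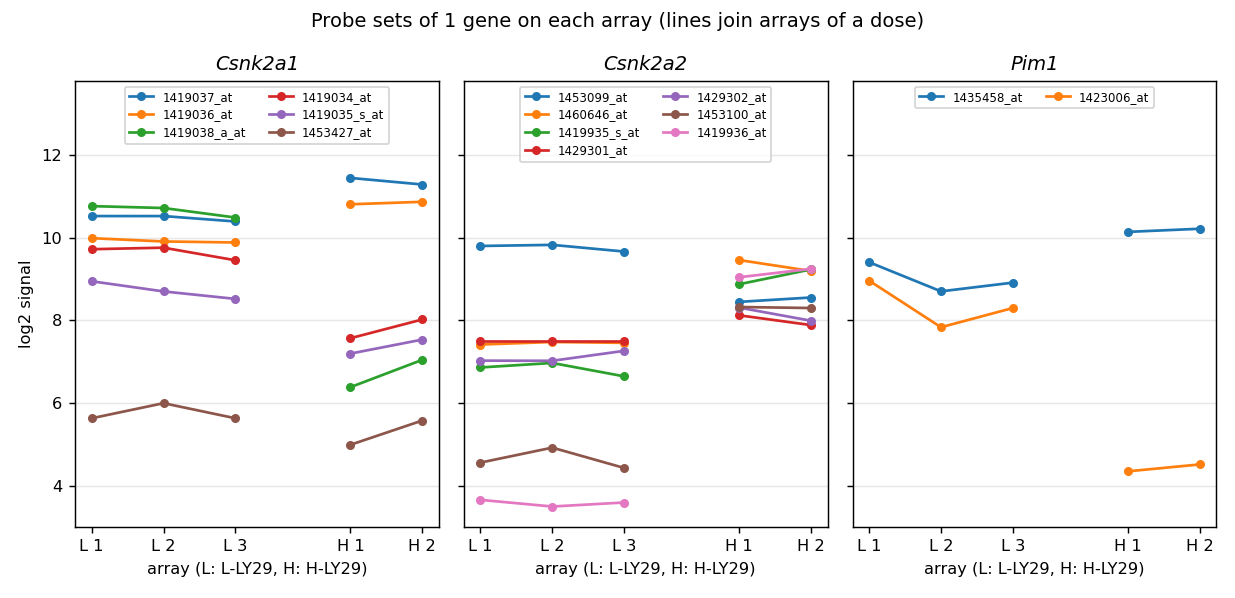
Log2 signal of each probe set of Csnk2a1, Csnk2a2 and Pim1 on every array, with the L-LY29 arrays left of the H-LY29 arrays and lines joining arrays of a dose. Probe sets of 1 gene moved in opposite directions between the doses in all 3 genes. The H-LY29 readings of 1423006_at of Pim1 and the L-LY29 readings of 1453100_at and 1419936_at of Csnk2a2 were near or under the filter of 4.77.

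The 21 measured partners and substrates of CK2 were divided evenly, with 8 higher, 8 lower and 5 not called, and a median of 0.15. Across all genes, 27.1% were higher and 46.6% were lower. Cdc37, an HSP90 cochaperone that is phosphorylated by CK2, was higher by 1.503 ± 0.06 (SE; adjusted p = 5.12e-05). Npm1, a nucleolar chaperone, was higher by 0.68 ± 0.03 (SE; adjusted p = 8.89e-05), on both of its probe sets. Supt16, a subunit of the histone chaperone FACT, was lower by 0.84 on the brighter of its probe sets and was called lower on both. Dvl1, a Wnt signalling protein, was lower by 0.92. Cdc37 and Dvl1 were each called on 1 of 2 tested probe sets.

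Both PIM kinase genes were lower in L-LY29 on their brightest probe sets. Pim3 read 10.15, 10.18 and 10.36 in L-LY29 and 13.43 and 13.50 in H-LY29 on probe set 1437100_x_at. The groups were far apart, with a difference of -3.23 ± 0.08 (SE; 9.40-fold, adjusted p = 4.04e-05). Probe set 1451069_at gave 8.71, 8.57 and 8.71 in L-LY29 and 9.35 and 9.59 in H-LY29, a smaller difference in the same direction (-0.80, adjusted p = 0.00141). The third probe set, 1438956_x_at, read 3.94 on each L-LY29 array and 4.08 and 4.03 in H-LY29, under the filter on low values, and was not tested. The suffix _x_at marks probes that can match other sequences, and it applies to the brightest Pim3 probe set too.

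Pim1 was called lower on one probe set and higher on the other, of which the second was near the low end of the scale in H-LY29. Its brightest probe set, 1435458_at, gave 9.41, 8.70 and 8.92 in L-LY29 and 10.15 and 10.22 in H-LY29. The L-LY29 arrays were all below the H-LY29 arrays, with a difference of -1.17 ± 0.22 (SE; 2.25-fold, adjusted p = 0.00577), and the call was lost without H-LY29 replicate 1 (-1.21, adjusted p = 0.0699) and without H-LY29 replicate 2 (-1.14, adjusted p = 0.0788). The difference stayed about as large there, and with 1 H-LY29 array left the spread came from the L-LY29 arrays alone. Probe set 1423006_at gave 8.96, 7.83 and 8.30 in L-LY29 and 4.34 and 4.51 in H-LY29. It was higher on every L-LY29 array. Its H-LY29 values were under the filter and close to the 4.14 of the highest poly-A control probe set there, and no fold is given. On both probe sets, L-LY29 replicate 1 was the highest of its group and replicate 2 the lowest. The means of the ocular surface epithelium markers given above had the same order among the L-LY29 arrays. So did those of the astrocyte markers (8.99, 8.11 and 8.86 on replicates 1, 2 and 3). Oligodendrocyte progenitor markers (8.58, 8.25 and 8.55) and retinal neuron markers (7.04, 6.92 and 7.02) shared that order too. The oligodendrocyte, microglia, fibroblast and mitosis markers were ordered otherwise. The part of any of these lists in the Pim1 values was not tested.

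RefSeq promoter windows, from 250 bases before to 50 after a start, were matched for 7 of the 9 genes, in 12 windows of GRCm38.p6. Those of the PIM genes are printed because Pim1 has 2 annotated starts and probe sets that disagreed, and because Pim3 was lower on both tested probe sets. Capitals mark CACGTG (the E-box bound by MYC and MAX), CCAAT and GGGCGG (the GC box), each searched on both strands with overlapping matches counted.

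Pim1, chr17:29490535-29490834, plus strand: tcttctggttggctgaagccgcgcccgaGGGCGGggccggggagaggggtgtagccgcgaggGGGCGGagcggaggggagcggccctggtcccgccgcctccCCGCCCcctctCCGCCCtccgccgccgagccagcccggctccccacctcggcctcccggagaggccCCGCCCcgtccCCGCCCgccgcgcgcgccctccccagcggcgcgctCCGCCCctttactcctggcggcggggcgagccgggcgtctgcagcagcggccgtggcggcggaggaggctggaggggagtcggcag

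Pim1, chr17:29492835-29493134, plus strand: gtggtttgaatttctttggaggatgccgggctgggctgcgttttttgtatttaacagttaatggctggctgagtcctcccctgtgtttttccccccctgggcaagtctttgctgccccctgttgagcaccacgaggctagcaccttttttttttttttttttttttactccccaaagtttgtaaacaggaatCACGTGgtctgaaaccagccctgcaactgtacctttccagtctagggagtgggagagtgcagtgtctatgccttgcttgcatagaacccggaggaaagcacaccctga

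Pim3, chr15:88861944-88862243, plus strand: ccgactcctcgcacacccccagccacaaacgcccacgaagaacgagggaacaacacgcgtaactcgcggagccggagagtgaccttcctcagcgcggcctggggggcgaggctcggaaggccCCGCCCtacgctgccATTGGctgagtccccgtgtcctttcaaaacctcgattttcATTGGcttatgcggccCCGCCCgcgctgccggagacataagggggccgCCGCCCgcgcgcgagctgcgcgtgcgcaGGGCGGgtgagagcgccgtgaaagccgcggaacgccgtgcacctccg

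The upstream Pim1 window had 7 GC boxes and 81.3% G or C, and the downstream window had none and 49.0%. The E-box was found in 1 of the 12 members' windows, the downstream Pim1 window, 58 bases before its start, and in 7.15% of all 32851 windows. The Pim3 window held CCAAT 2 times, both as the reverse complement, and this motif was found in 37.4% of all windows. The GC box was found in 9 of the 12 windows and in 35.7% of all windows. TTCNNNGAA, the core letters read by STAT factors, which are known inducers of Pim1, was found in neither Pim1 window nor the Pim3 window, and in 8.3% of all windows. The annotation used does not tie either Pim1 probe set to a start.

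Of the 20 measured inducers and substrates of PIM kinases, 13 were lower, 5 were higher and 2 were not called. Their median was -0.76, beside 46.6% of all genes lower and 27.1% higher. The count of higher genes was 3 without L-LY29 replicate 2 and 3 without L-LY29 replicate 3. Stat5a, a cytokine-activated transcription factor gene upstream of Pim1, read 5.89, 5.66 and 5.52 in L-LY29 and 9.80 and 9.53 in H-LY29. Its doses were far apart, with a difference of -3.97 ± 0.16 (SE; adjusted p = 5.50e-05). Map3k5, which encodes the stress kinase ASK1, was lower by 4.41. Foxo3, a transcription factor gene, was lower by 2.55, and Cdkn1b, which encodes the cell cycle inhibitor p27, was lower by 1.31. None of the probe sets of these 4 genes was called higher, and Foxo3 was called on 2 of its 3 tested probe sets.

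Prkdc, the DNA-PK catalytic subunit gene, was the single member without a call. Its probe set, 1451576_at, gave 7.03, 6.99 and 7.05 in L-LY29 and 7.10 and 7.02 in H-LY29. The doses overlapped. The difference was -0.03 (95% interval -0.25 to 0.18, adjusted p = 0.748), so that a shift of either sign within that interval is not resolved. The scaling of the arrays bore on it, since quantile normalization gave 0.50 (adjusted p = 0.00386). Of 12 measured genes of DNA-PK and end joining, 8 were lower, 2 were higher and 2 were not called, with a median of -0.86, beside 46.6% of all genes lower. The lower count was 5 with the stricter filter on low values, and the higher count was 1 without H-LY29 replicate 1, L-LY29 replicate 2 or L-LY29 replicate 3 and 0 without H-LY29 replicate 2.

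The Ku genes, whose products load DNA-PK on broken ends, gave different readings. Xrcc5, for Ku80, read 5.52, 5.68 and 6.01 in L-LY29 and 7.96 and 7.56 in H-LY29. It was lower on every L-LY29 array, with a difference of -2.02 ± 0.20 (SE; adjusted p = 0.000604). Xrcc6, for Ku70, read 8.16, 8.20 and 8.22 in L-LY29 and 8.23 and 8.42 in H-LY29, and was not called (-0.13, 95% interval -0.36 to 0.09). Whether the differences of Xrcc5 and Xrcc6 themselves differ was not tested. Parp1, a sensor of DNA breaks, was lower by 2.92, Nhej1, for an end-joining scaffold, averaged 4.37 in L-LY29, under the filter, and 6.12 in H-LY29, and Lig4, the ligase gene of the pathway, was lower by 1.07. Of the 3 Parp1 probe sets, 1 was called higher.

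The kinase family to which DNA-PK belongs, whose members resemble PI3K in sequence, was counted with the genes of its assembly factors. Of the 10 measured genes, 8 were lower, 1 was higher and 1 was not called. Their median was -0.98, beside 46.6% of all genes lower and 27.1% higher. Mtor, the growth kinase gene, read 7.68, 7.69 and 7.72 in L-LY29 and 8.49 and 8.40 in H-LY29. It was lower on all L-LY29 arrays, with a difference of -0.75 ± 0.07 (SE; adjusted p = 0.000539), while its other probe set was called higher. Atm, the DNA damage kinase gene, was lower by 1.79, and Smg1, of nonsense-mediated decay, was lower by 1.30, and each also had 1 probe set called higher. Tti2 (-3.63) and Tti1 (-1.88), whose products help these kinases mature, were lower too. Tti2 was called on 2 of its 3 tested probe sets.

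Myc was higher in L-LY29. Its probe set, 1424942_a_at, gave 8.52, 8.52 and 8.67 in L-LY29 and 7.94 and 7.93 in H-LY29. All L-LY29 arrays were above both H-LY29 arrays, by 0.64 ± 0.08 (SE; 1.55-fold, adjusted p = 0.00143), with 2 L-LY29 arrays at an equal value. Quantile normalization gave a wider difference of 1.12. Max, the gene of its obligate partner, went the other way, at 9.20, 9.21 and 9.18 in L-LY29 and 10.80 and 10.53 in H-LY29. That was a difference of -1.47 ± 0.09 (SE; adjusted p = 0.00015).

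Of 16 measured genes of the MYC network, 9 were lower, 2 were higher and 5 were not called, with a median of -1.07. The higher count was 1 without L-LY29 replicate 1, 2 or 3. Mga, a MAX-binding repressor gene, was lower by 2.93 on its brightest probe set, with 2 of its 4 probe sets called each way. Fbxw7, which encodes the ubiquitin ligase subunit that recognises MYC, was lower by 2.04, and Mlx, a MAX-like factor gene, was lower by 1.61. Both were called on 1 of 2 tested probe sets. Of 32 measured MYC target genes, 20 were lower, 8 were higher and 4 were not called. Their median was -0.38, beside the same 46.6% of all genes lower and 27.1% higher. Ccnd2, the cyclin D2 gene, was lower by 2.75 and was called lower on all 7 of its probe sets. Ddx21 (-2.46), Ppan (-2.31) and Wdr43 (-1.88), which serve ribosome synthesis, were lower, although 1 of the 2 Wdr43 probe sets was called higher. Npm1, on this list as well, was higher.

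**Figure D4:**
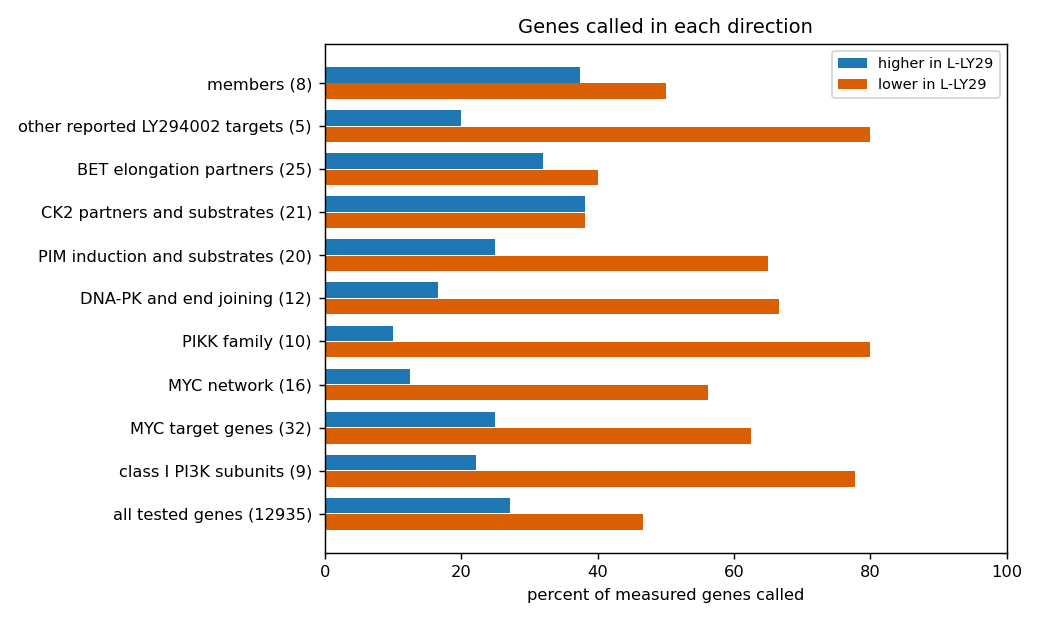
Percent of the measured genes of each list called higher or lower in L-LY29, with the number measured in brackets and all 12935 tested genes at the bottom (27.1% higher, 46.6% lower). Every list shown and all tested genes had more genes lower than higher, except CK2 partners, which had 8 each way.

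Of 5 measured genes of further kinases reported to be bound by LY294002, 4 were lower and 1 was higher, with a median of -1.28, beside 46.6% of all genes lower and 27.1% higher. Gsk3b, a kinase gene of glycogen metabolism and Wnt signalling, was lower by 2.82, with 3 of its 6 probe sets called lower and 1 higher. Pim2, the remaining PIM kinase gene, read 5.83, 6.31 and 6.27 in L-LY29 and 7.32 and 7.51 in H-LY29. It was lower on all L-LY29 arrays, with a difference of -1.28 ± 0.18 (SE; adjusted p = 0.00211). Hipk2, a nuclear kinase gene, was higher by 0.90 ± 0.08 (SE; adjusted p = 0.000476), and all 8 of its probe sets were called higher.

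The class I PI3K genes, whose products are the intended targets, had 7 of 9 measured genes lower and 2 higher, with a median of -0.56. Across all genes, 46.6% were lower and 27.1% were higher. The catalytic subunit genes Pik3ca (-1.29) and Pik3cb (-1.55) and the regulatory subunit gene Pik3r3 (-2.20) were lower. Of the 5 tested Pik3ca probe sets, 3 were called lower and the others were not called. On its brightest probe set, Pik3cd, 1 of the 2 higher genes, read 11.46, 11.38 and 11.23 in L-LY29 and 2.47 and 2.84 in H-LY29. The H-LY29 values were below that of the highest poly-A control probe set there. The Pik3cd probe set passed the filter on low values through L-LY29 alone, so that its difference is not read as a size. Of the 2 tested Pik3cd probe sets, 1 was called higher and the other was not called.

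For each member, the genes whose pattern over the 5 arrays was nearest were taken by the root mean square difference of values centred on each gene's mean. Nearest to Brd2 were Marchf8 (0.0133) and Gde1 (0.0161), and to Myc Tagln2 (0.00825) and Timeless (0.0202). Brd3 was nearest to Alkbh5 (0.0331) and Ptprs (0.0372), and Pim3 to Kpna6 (0.0458) and Pgm1 (0.0667). Csnk2a1 had Mtcp1 (0.0248) and Dcaf15 (0.03), and Csnk2a2 had Podxl2 (0.0271) and Mettl16 (0.0321). Prkdc had BC031181 (0.00973) and Retreg1 (0.0107). Pim1 lay farther from its nearest genes, Sqle (0.0851) and 9430015G10Rik (0.094), than any other member did from its own. With 5 arrays in 2 doses, nearness reflects mostly the size of the difference between doses, and no member was the near neighbour of another.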

How the data were processed

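Per the labels and the methods of the study, RNA from the cultured nerves was hybridised to Affymetrix GeneChip Mouse Genome arrays. The methods name the GeneChip Operating Software for quality control and data analysis, and MAS-5 in Agilent GeneSpring for normalization. Whether the deposited values come from that step was not tested. The deposited values are log2 signals per probe set, 1 column per array, with a scaling target not given in the sources used here. They were used as deposited, with no further normalization. Of 45101 probe sets, 34945 named a single gene in the platform annotation, 932 named several and 9211 none, and another 13 were named control probe sets, which were left out. The number of arrays (3 L-LY29 and 2 H-LY29) limits the precision.

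Probe sets that named 1 gene and whose mean over the 5 arrays was at or above the 40th percentile (4.77) were tested with limma 3.58.1 (R 4.3.3; two-sided, eBayes with the variance following intensity), with Benjamini-Hochberg adjustment over all 12935 genes or all 23456 probe sets and a threshold of 0.05. Each gene was represented by its brightest probe set. The steps were tested on simulated data. The alternatives were other filters, floors and normalizations, the variance model without a trend, the unpaired t-test that the methods name for other measurements, a replicate block, other choices of the probe set of a gene, and each array left out.

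The rule for the members uses no measured value, but members, gene lists and markers were chosen with earlier results of these data known. The text names every member with its probe sets, up to 4 called genes of the smallest adjusted p from each list, genes needed to read a member (Hexim1, Max, Xrcc5, Xrcc6, Pim2 and Mtor) and the 2 nearest genes of each member. Sequences come from RefSeq (GRCm38.p6).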

Additional observations from a re-analysis of the deposited data

How the results depend on the processing

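With 3 arrays against 2, and with controls, scaling and cell type markers that differed between the doses, the calls describe these arrays. Brd2, Pim3 and Myc kept their direction and call under every alternative run for them. The count of member genes called stayed between 5 and 8 (7 as reported) and that of member probe sets between 18 and 24 (21 as reported). Leaving out 1 array (without either H-LY29 array, the lone one is assumed to vary like the L-LY29 arrays) gave 6 to 7 genes and 20 to 21 probe sets. Of the 25 tested probe sets, 19 kept direction and side of the threshold in every setting that could be run for them, and 15 of these were run in all 15 settings. One setting, which asks that both dose means reach the filter, was chosen after seeing the data and gave 7 genes and 18 probe sets. A replicate block gave 7 genes and 21 probe sets. Same-numbered arrays did not deviate together (correlations 0.0172 and 0.0353). The 2 H-LY29 arrays deviate from their mean by equal and opposite amounts, so the 2 correlations are not separate checks. They cannot show whether same-numbered arrays shared mice or a batch. The block changed no member's call. Prkdc was 0.50 with quantile normalization (adjusted p = 0.00386) and 0.18 with equal array medians, and -0.0675 to 0.00557 with 1 array left out (highest without H-LY29 replicate 1, on gene and probe set alike). Under quantile normalization, 1429301_at of Csnk2a2 was 0.0232, and 1460328_at and 1450902_at of Brd3 and 1453427_at of Csnk2a1 passed the threshold at 0.62, 0.57 and 0.70; the last did so with equal medians too, at 0.68. Probe set 1450902_at ran between -0.0718 and 0.21 with 1 array left out, and Pim1 between -1.37 and -1.02, with its call lost without either H-LY29 array. Averaging over the tested probe sets gave 0.97 for Csnk2a1, -1.95 for Csnk2a2 and 1.38 for Pim1, and the second brightest gave 0.0932 for Brd3, -1.88 for Csnk2a2 and 3.94 for Pim1. The cause was not tested. Over all genes, quantile normalization and equal medians moved the median difference of -0.26 to 0.05 and -0.05, and the share of calls that were higher, 36.8%, to 51.6% and 47.2%. All genes called numbered 9542, and 4468 with the second brightest probe set, where fewer genes could be tested. With the replicate block, 4 rather than 8 genes of the BET partner list, 2 rather than 5 PIM genes and 0 rather than 2 end-joining genes were higher.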
